A study of Nicotiana attenuata with 6 samples.

Results

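The cytosolic ribosomal proteins measured here are 13 probes, of 59157 on the array, whose names carry a UniProt entry for a protein of the large (RL) or small (RS) subunit of the cytosolic ribosome. They were found by name alone, with no signal used. They stand for 9 proteins, of the 290 whose names can be read from probe names: RL8 and RS4 have 3 probes each, and RL10, RL15, RL223, RL31, RL44, RS25 and RS3A have 1 each. Of the 13, 12 probes for 8 proteins were measured, meaning that every array of EV or of irZTL, and here all 6, was flagged well above background. RL223_ARATH, matched to an Arabidopsis large subunit protein, was flagged well above background on 0 of 6 arrays, so no difference is given for it. A plant has many more ribosomal proteins, and probes named only by an accession or by no protein are not counted among these.

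RNA came from flower peduncles, the stalks that move the flower, of Nicotiana attenuata, the coyote tobacco. Plants were either transformed with an empty vector (EV) or with irZTL, an RNA interference construct against ZEITLUPE (ZTL), a light-sensing F-box protein of the circadian clock. All were grown in the glasshouse with 16 h of light in each day, followed by 8 h of dark, and sampled at ZT0, when the lights come on, on the first day of flower movement. Each of the 3 EV and 3 irZTL samples was a pool of peduncles hybridised to a one-colour Agilent array. The study's design text names 1 silenced line, irZTL-314, and no probe carries the name of ZTL, so the degree of silencing was not analysed here. Since nothing says that the pools were of separate plants, p-values cover only the spread between pools, which may be technical.

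The cytosolic ribosome translates the mRNAs of nuclear genes. Its small subunit reads the mRNA and its large subunit joins the amino acids and passes the new chain out through a tunnel. In plants most ribosomal proteins are encoded by small families of near-identical genes, and their transcripts are abundant in growing tissue. Plastids and mitochondria have ribosomes of their own with different proteins.

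Between 29218 and 30168 probes per array were flagged well above background, and the 75th percentile of processed signal was 239 to 327. Correlation of log2 signal across the measured probes was 0.986 to 0.994 within groups and 0.972 to 0.984 between them. By their barcodes, 2 slides were used: irZTL replicates 1 and 2 shared slide 1, and slide 2 carried the EV arrays and irZTL replicate 3. Slide 1 held no EV array, so only irZTL replicate 3 can be set against EV within a slide. No probe list here defines the peduncle itself. Among markers of green leaf tissue, the list matched 10 measured probes, of which 2, for PSA6, are a proteasome subunit with similar first letters. Of the other 8, 2 were called, against 1.75% of all measured probes, and both fell: CB23_TOBAC differed by -2.46 ± 0.22 log2 (SE, limma adjusted p = 0.00495) and RCA_SOLPN by -1.34 ± 0.12 (limma adjusted p = 0.00540). For CB23_SOLLC the groups were also separate, with a difference of -1.70 ± 0.37 that missed the threshold (limma adjusted p = 0.0609). The rest of the 8 had overlapping groups and did not share the fall. RBS2_NICSY differed by -0.05 ± 0.13, PSAEA_NICSY by -0.02 ± 0.09 and PSBC_TRACE by 0.02 ± 0.13. PSAEB_NICSY differed by 0.07 ± 0.09 and PSBK_SILLA by 0.21 ± 0.22. The pollen and anther marker POLC2_TOBAC differed by -0.60 ± 0.12 with separate groups (limma adjusted p = 0.0460), under the 2-fold limit of a call. LAT52_SOLLC, the other such marker, had overlapping groups and a difference of -0.96 ± 1.19 (limma adjusted p = 0.711), which was 0.24 without irZTL replicate 2. The part of these tissues in the ribosomal values was not tested. In such bulk RNA, fewer cells of a type and less RNA per cell cannot be told apart.

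No cytosolic ribosomal protein transcript passed the test between irZTL and EV, and every measured difference was small. The 12 probes differed by -0.24 to 0.11 log2 (irZTL minus EV), which is -15.6% to 8.0% in signal. Levels are log2 processed signal relative to the array's 75th percentile. The test was limma fitted across all 28678 measured probes, with Benjamini-Hochberg adjustment, and a call needed both a change above 2-fold and an adjusted p under 0.05. The count of calls was 0 of 12, against 1.75% of all measured probes. At any fold, 0 of 12 had an adjusted p under 0.05, against 4.04% of all measured probes, and the adjusted p ran from 0.269 to 0.999. At an unadjusted p under 0.05 in limma the count was also 0 of 12, against 20.2% of all measured probes, the lowest being 0.0583. With the methods' t-test it was likewise 0 of 12 at either threshold.

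In this fit, which had no slide or replicate block, the size of these differences was bounded closely. All 12 of the 95% intervals included 0, as did those of 79.8% of all measured probes, and they reached from -0.50 log2 at the lowest bound to 0.38 at the highest, or -29.3% to 30.0% in signal. A 2-fold change therefore lay outside the interval of each of the 12 probes in this fit. An interval within 1 log2 of 0 on both sides was found for 86.6% of all measured probes. The standard errors of the 12 were 0.09 to 0.11 log2. Smaller changes in either direction stayed inside the intervals, so these values do not show that the levels were equal. The bounds hold only for the fit with no block. With the replicate block, 2 intervals excluded 0, those of RL8 NA14924_22624 (-0.24 ± 0.08 log2, SE) and RL8 NA63828_22622 (-0.22 ± 0.08). Their limma adjusted p there was 0.138 and 0.169. With slide as a fixed block, RS3A differed by -0.35 ± 0.13 log2, an estimate that rests on irZTL replicate 3.

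**Figure D1:**
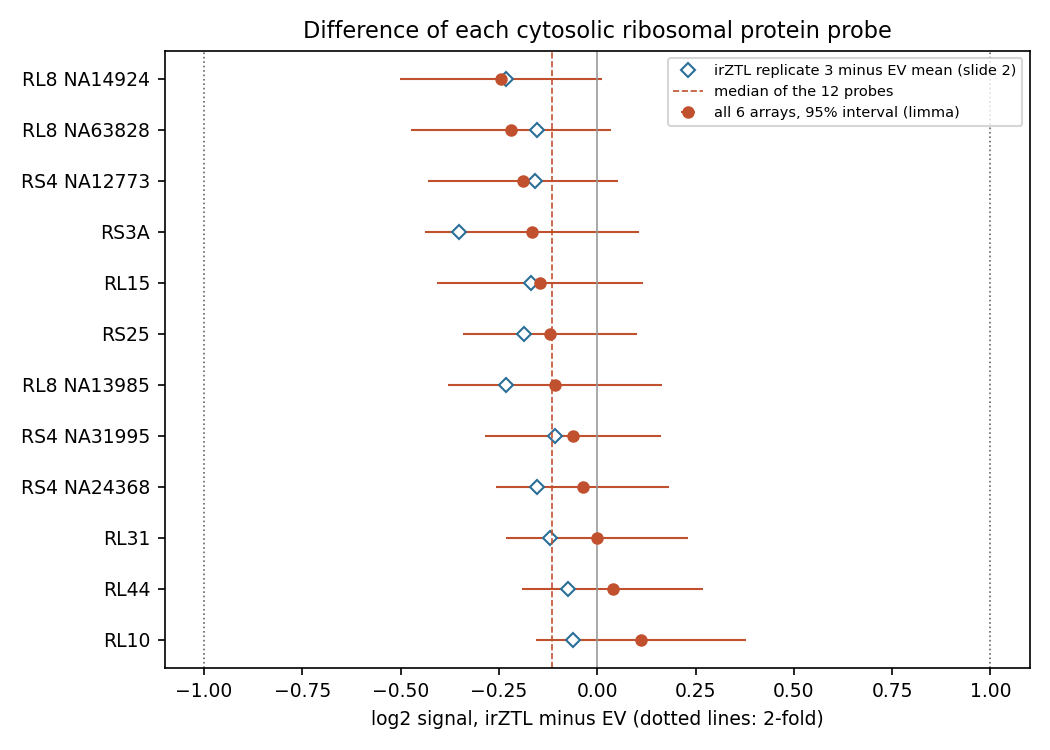
Difference in log2 signal, irZTL minus EV (horizontal axis), of each of the 12 measured probes, named by protein and, for RL8 and RS4, by the first part of the probe identifier. Filled points with bars are the limma estimate and its 95% interval over 6 arrays, open diamonds are irZTL replicate 3 minus the EV mean on slide 2, the dashed line is the median of -0.11 and the dotted lines mark 2-fold. Every bar crosses 0 and none reaches 2-fold, and all 12 diamonds lie below 0.

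RL8_SOLLC, matched to a tomato entry, is the large subunit protein that lies next to the catalytic centre where peptide bonds form, as known from yeast and bacteria. Its probe NA14924_22624 read 3.30, 3.55 and 3.54 on the EV arrays (replicates 1 to 3) and 3.14, 3.29 and 3.23 on the irZTL arrays. All irZTL values were below all EV values, with irZTL replicate 2 just under EV replicate 1. The difference of -0.24 ± 0.11 log2 (SE; 95% interval -0.50 to 0.01) was the largest of the 12 in size and did not pass (limma adjusted p = 0.269). The exact permutation test gave p = 0.1, the smallest that 3 against 3 allows.

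A second RL8_SOLLC probe, NA63828_22622, read 5.41, 5.67 and 5.54 in EV and 5.21, 5.36 and 5.39 in irZTL. Again no irZTL value reached the lowest EV value, and the difference was -0.22 ± 0.11 (limma adjusted p = 0.315). The third, NA13985_22625, read 3.91, 4.16 and 4.08 in EV and 3.93, 4.08 and 3.82 in irZTL, a difference of -0.11 ± 0.11 (adjusted p = 0.660). Here the groups overlapped, since EV replicate 1 was below irZTL replicates 1 and 2. The first 2 RL8 probes were the only ones of the 12 whose groups did not overlap with irZTL lower, 2 of 12 against 13.1% of all measured probes, a share near that background. No member had groups that did not overlap with irZTL higher, against 12% of all measured probes.

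RL15_PETHY, matched to petunia, is a protein of the core of the large subunit. It read 4.61, 4.82 and 4.78 in EV and 4.48, 4.73 and 4.57 in irZTL. irZTL replicates 1 and 3 were below all EV arrays and irZTL replicate 2 was not, and the difference was -0.15 ± 0.11 log2 (limma adjusted p = 0.522).

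RL31_NICGU, matched to another Nicotiana species, sits at the exit of the tunnel through which the new chain leaves, as known from yeast. It had the smallest difference of the 12. It read 6.95, 7.06 and 6.9997 in EV and 7.02, 7.10 and 6.88 in irZTL, so that the irZTL arrays held both the highest and the lowest value. The difference was -0.00034 ± 0.10 log2, with a 95% interval of -0.23 to 0.23.

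RL44_GOSHI and RL10_VITRI were the only members with a mean above that of EV. RL44, a large subunit protein near the site where spent tRNA leaves in the yeast ribosome, read 5.57, 5.68 and 5.59 in EV and 5.67, 5.75 and 5.54 in irZTL, a difference of 0.04 ± 0.10 log2. RL10, which in yeast joins the large subunit late in its assembly and helps place tRNA at the catalytic centre, read -0.72, -0.54 and -0.68 in EV and -0.47, -0.44 and -0.71 in irZTL. For RL10 the irZTL arrays of slide 1 were above all EV arrays, and irZTL replicate 3 on slide 2 lay among the EV values. Its difference was 0.11 ± 0.11 (limma adjusted p = 0.643), and it was -0.06 for irZTL replicate 3 against the EV mean. The RL44 difference was -0.07 in that comparison.

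All 5 measured small subunit probes had a mean below that of EV, with differences of -0.19 to -0.04 log2 and a median of -0.12. The 7 large subunit probes had a median of -0.11, with 5 of 7 below 0. These counts are of probes, not proteins: RS4 holds 3 of the small subunit probes and RL8 holds 3 of the large. A difference between the subunits was not tested.

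RS3A_TOBAC, matched to common tobacco, lies on the small subunit near the point where the mRNA leaves, as known from yeast and mammals. It read 3.80, 3.95 and 3.92 in EV and 3.78, 3.86 and 3.54 in irZTL. irZTL replicate 3 was well below the rest, irZTL replicate 1 was just below EV replicate 1, and irZTL replicate 2 lay within the EV range. The difference was -0.17 ± 0.11 log2 (95% interval -0.44 to 0.11, limma adjusted p = 0.482). It was -0.07 without irZTL replicate 3 and -0.35 for irZTL replicate 3 against EV, so its size rests largely on that array. RS3A also had the largest replicate SD of the 12 in irZTL, 0.17 log2, against 0.08 in EV (n = 3 each).

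RS25_SOLLC, a protein of the head of the small subunit, read 6.60, 6.73 and 6.75 in EV and 6.57, 6.64 and 6.51 in irZTL. irZTL replicates 1 and 3 lay below all EV arrays, and the difference was -0.12 ± 0.09 log2 (limma adjusted p = 0.532).

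RS4_SOLTU, matched to potato, is a small subunit protein that binds ribosomal RNA. Its probe NA12773_22870 read 4.62, 4.80 and 4.83 in EV and 4.47, 4.63 and 4.59 in irZTL, and NA24368_22871 read 6.09, 6.14 and 6.07 in EV and 6.11, 6.13 and 5.95 in irZTL. The third, NA31995_22872, read 6.09, 6.02 and 6.22 in EV and 6.04, 6.10 and 6.00 in irZTL. The groups overlapped in all 3 probes, narrowly in NA12773_22870, where irZTL replicate 2 lay just over EV replicate 1. Their differences were -0.19 ± 0.10, -0.04 ± 0.09 and -0.06 ± 0.09 log2 (limma adjusted p = 0.367, 0.865 and 0.768).

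**Figure D2:**
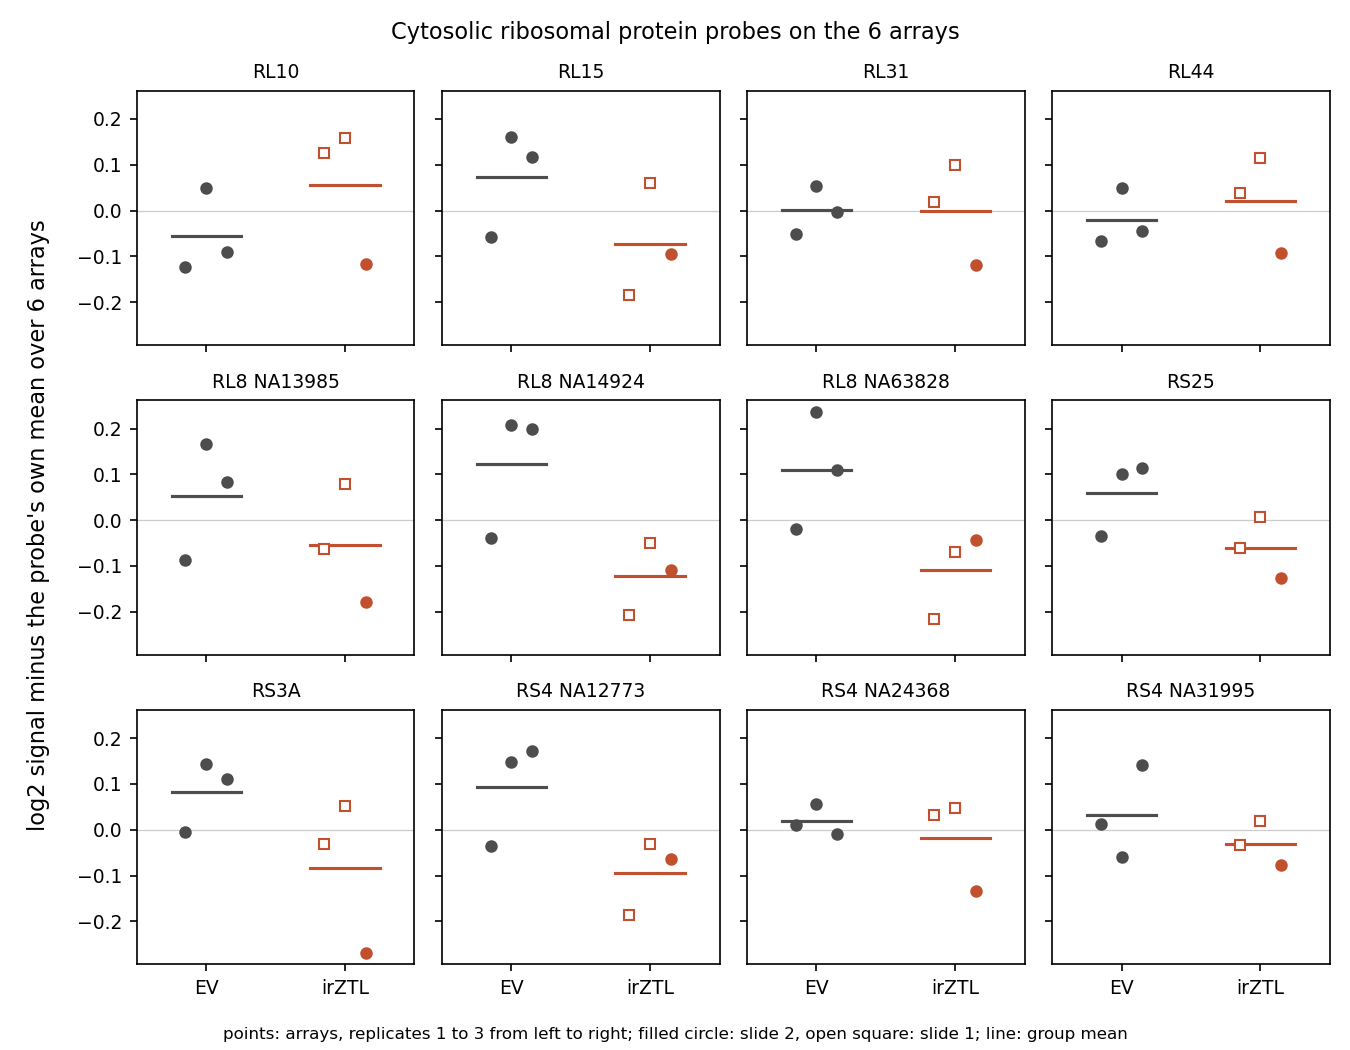
Log2 signal of each of the 12 measured probes on each array, minus the probe's own mean over 6 arrays (vertical axis), for EV (grey) and irZTL (red). Filled circles are arrays of slide 2, open squares arrays of slide 1, and lines are group means of 3 arrays. The groups are separate for RL8 NA14924 and RL8 NA63828 and overlap for the other 10 probes.

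Probes that share a protein name carry different sequence identifiers, and the files do not say whether they report 1 gene or several copies. With near-identical copies a probe can also bind more than one of them. The question whether such probes moved alike was addressed by taking the log2 difference between 2 probes on each array and comparing it between the groups, for the 6 pairs within RL8 and RS4. The differences of the differences ran from -0.15 log2, between RS4 NA12773_22870 and NA24368_22871, to 0.14, between RL8 NA13985_22625 and NA14924_22624. The exact permutation p over the 6 pairs was 0.2 to 0.8, and 0.6 to 0.8 after Benjamini-Hochberg adjustment, where 0.1 is the smallest unadjusted p that 3 against 3 allows.

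With all arrays taken as unpaired, the 95% interval included 0 for each of the 6 pairs. The 2 RL8 probes with separate groups, NA14924_22624 and NA63828_22622, moved within -0.15 to 0.10 log2 of each other (95% interval, estimate -0.03). The widest interval was that of RS4 NA12773_22870 against NA24368_22871, -0.44 to 0.14. For RL8 NA13985_22625 against NA14924_22624 the within-array difference was 0.60, 0.61 and 0.54 log2 in EV and 0.80, 0.78 and 0.58 in irZTL. Both irZTL arrays of slide 1 were above EV, and irZTL replicate 3 on slide 2 was within the EV range. On slide 2 alone the difference of the differences was -0.00061 for this pair, and -0.01 for the RS4 pair with the widest interval. That RS4 pair depended on the pairing of replicates. Taken within replicate numbers 1, 2 and 3, a comparison added after seeing the data, its difference of the differences was -0.17, -0.17 and -0.11, with a paired 95% interval of -0.24 to -0.07 that excluded 0. The exact sign-flip permutation p was 0.25, the smallest that 3 pairs allow, and 0.5 after adjustment over the 6 pairs. The paired interval included 0 for the other 5 pairs.

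As a group the 12 probes lay slightly lower in irZTL. Their median difference was -0.11 log2, with 10 of 12 below 0, while the median over all measured probes was -0.01 and 51% of them were below 0. At the level of proteins, with probes of 1 protein averaged, 6 of 8 were below 0 and the median was -0.11. The size of a member's difference was not unusual: the median absolute difference was 0.12 log2 over the members and 0.16 over all measured probes. The members also share arrays and normalisation, so their signs are not independent observations. When the measured probes were split into 4 bins of equal size by mean signal, 11 members fell in the brightest bin and RL10 in the second dimmest. In the brightest bin the median difference was -0.02, with 54.1% of probes below 0. The median absolute difference of that bin was 0.12, about that of the members.

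**Figure D3:**
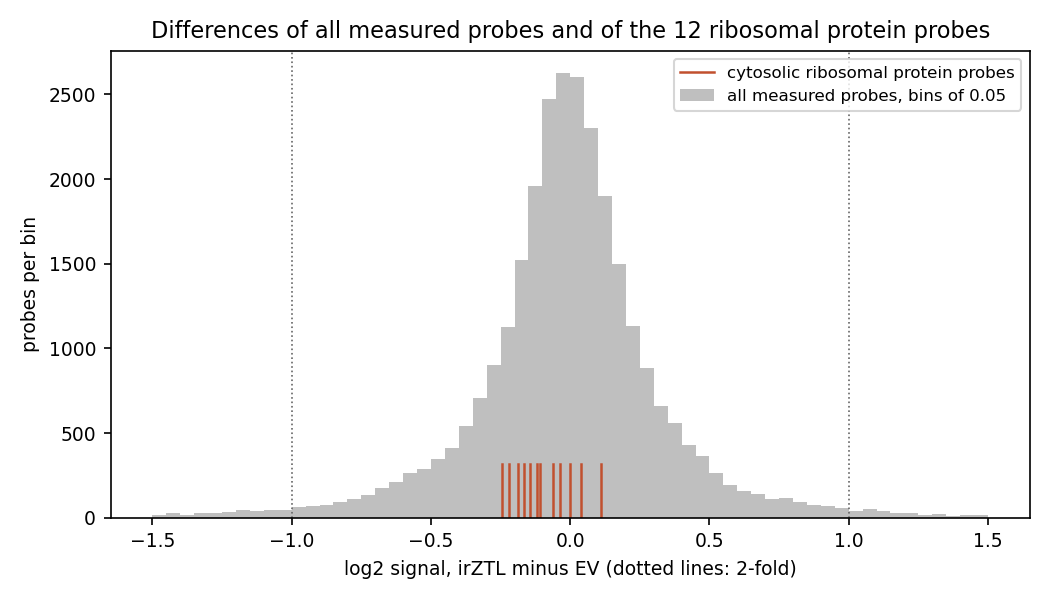
Number of measured probes (vertical axis) by difference in log2 signal, irZTL minus EV, in bins of 0.05 (grey bars, 319 probes beyond 1.5 log2 are not drawn). Red lines mark the 12 cytosolic ribosomal protein probes, which lie between -0.24 and 0.11, inside the central peak and mostly to the left of 0, and dotted lines mark 2-fold.

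The shift was not shared evenly by the arrays. The median deviation of the 12 probes from their own means was -0.04, 0.12 and 0.11 log2 in EV replicates 1 to 3 and -0.05, 0.05 and -0.11 in irZTL replicates 1 to 3. EV replicate 1 thus lay with the irZTL arrays, and irZTL replicate 2 lay above it. Over all measured probes the median deviation stayed between -0.01 and 0.02 on every array. EV replicate 1 was below the group mean for 12 of 12 members, and irZTL replicate 2 was above the group mean for 12 of 12. The share over all measured probes was not computed for either count, and probes of the same protein count separately in both. The 2 arrays with the highest 75th percentile of processed signal, EV replicate 2 (327) and irZTL replicate 2 (306), were also the highest of their groups by this median, but EV replicate 3, with the lowest percentile (239), was almost as high, and the part of signal depth was not tested. The SD of these array medians within groups was 0.09 log2, close to the size of the shift between groups.

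irZTL replicate 3 was the lowest of the 6 arrays for 7 of 12 members and was below every EV array for 11, the exception being RL10. For these counts the share over all measured probes was not computed. Against the EV mean on the same slide irZTL replicate 3 was lower for all 12, and for 51.6% of all measured probes. The median over the members was -0.16 log2, where the median over all measured probes was -0.01. Without irZTL replicate 3 the median over the members was -0.06 and 8 of 12 were below 0. By that median the irZTL arrays of slide 1 were closer to EV. This did not hold for the 3 members with the lowest mean differences, nor for RL10 and RL44. Without irZTL replicate 3, RL8 NA14924 was at -0.25, RL8 NA63828 at -0.25 and RS4 NA12773 at -0.20, each below its value for irZTL replicate 3 alone. RL10 was at 0.20 and RL44 at 0.10 without irZTL replicate 3, against -0.06 and -0.07 for that array alone. Between the slides within irZTL, the members were 0.13 log2 higher on slide 1 by their median, against 0.01 over all measured probes. A single irZTL array on slide 2 cannot separate the slide from the sample. With EV replicate 1 left out the median was -0.17.

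**Figure D4:**
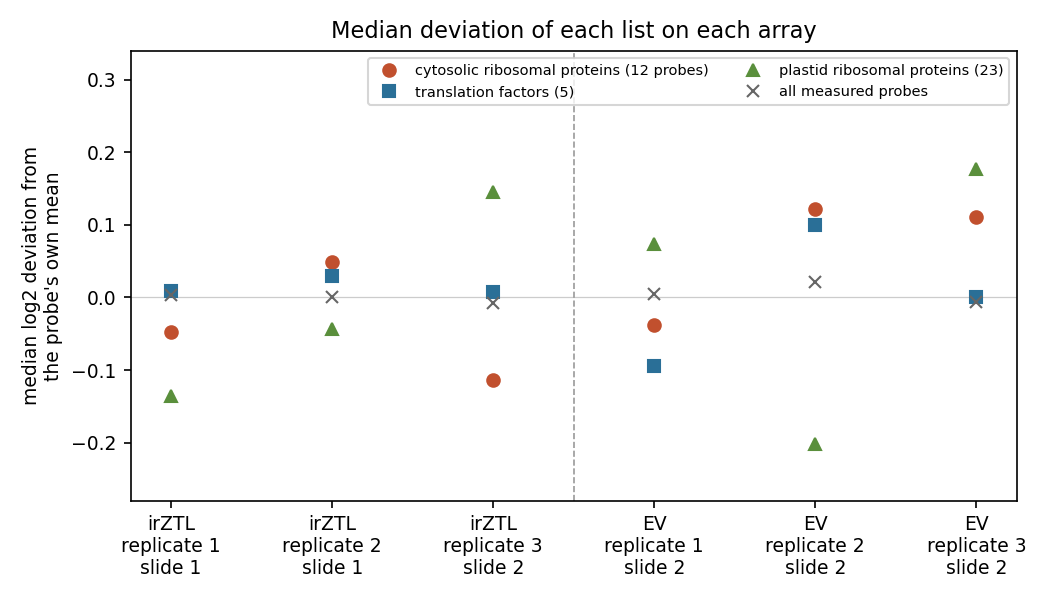
Median log2 deviation from the probe's own mean over 6 arrays (vertical axis) on each array, for the 12 cytosolic ribosomal protein probes, 5 translation factor probes, 23 plastid ribosomal protein probes and all measured probes. The cytosolic ribosomal medians run from -0.11 in irZTL replicate 3 to 0.12 in EV replicate 2, with EV replicate 1 and irZTL replicate 1 close together.

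The 12 probes differed in how closely they followed this common pattern. Pearson correlation of a probe with the median profile over the 6 arrays ran from 0.26 for RL10 and 0.48 for RL44 to 0.97 for RL8 NA13985_22625 and 0.98 for RS25, each probe being part of the median it is set against. Replicate SDs of the 12 were 0.03 to 0.14 log2 in EV and 0.05 to 0.17 in irZTL, with medians of 0.10 in each, below the medians of 0.16 and 0.14 over all measured probes. In the brightest bin those medians were 0.12 and 0.10.

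Other genes of protein synthesis gave no call in limma, against 1.75% of all measured probes. The counts were 0 of 5, 0 of 23 and 0 of 4 measured probes for the lists that follow. At that share, lists this short would hold few calls or none. At an unadjusted p under 0.05 in limma the counts were also 0, against 20.2% of all measured probes. Translation factors, which load mRNA and drive the ribosome along it, had a median of -0.0037 log2 over 5 probes and a range of -0.04 to 0.09. EIF3A_TOBAC, a subunit of the factor that prepares the small subunit for mRNA, had 1 probe at 0.09 ± 0.08 and 1 at -0.01 ± 0.10. For the probe at 0.09 the groups did not overlap, with irZTL higher (limma adjusted p = 0.598). It was the only such probe of the 5, against 12% of all measured probes. IF4A3_NICPL, an RNA helicase, differed by -0.0037 ± 0.09, IF411_TOBAC by -0.04 ± 0.14 and IF5A2_NICPL, which aids peptide bond formation, by 0.02 ± 0.10. On the slide 2 arrays the translation factors had a median of 0.01, where the cytosolic ribosomal proteins had -0.16.

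Plastid ribosomal proteins, by the UniProt name codes RK and RR, had 18 of 23 measured probes below 0, with a median of -0.04 log2 and a range of -0.19 to 0.08. RR16_NICTO differed by -0.19 ± 0.17, RR11_PEA by -0.18 ± 0.19, RK22_AGRST by -0.11 ± 0.14 and RK2B_SOYBN by -0.11 ± 0.14. Their median deviations were 0.07, -0.20 and 0.18 in EV replicates 1 to 3 and -0.14, -0.04 and 0.15 in irZTL. irZTL replicate 3, low in the cytosolic list, was high here, and its median difference from the EV mean was 0.13. Mitochondrial ribosomal proteins had 2 of 4 below 0 and a median of 0.01, with RT19_ARATH at 0.21 ± 0.21, RT14_OENBE at -0.07 ± 0.23, RT14_BRANA at 0.05 ± 0.18 and RM02_ORYSJ at -0.03 ± 0.20. Whether the lists differ from each other was not tested. No probe name matched the list of ribosome biogenesis factors.

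Among the 188 other measured probes with a readable protein name, the array pattern most like the cytosolic ribosomal median was that of a probe for PSA6_TOBAC, a proteasome subunit, with a Pearson correlation of 0.89 over 6 arrays. ST14_SOLTU followed with 0.87 and GSA_TOBAC, an enzyme of chlorophyll precursor synthesis, with 0.80. They were picked as the highest of 188, so the correlations carry no test. Their own differences were small and did not pass, at -0.02 ± 0.09, -0.12 ± 0.10 and -0.04 ± 0.12 log2 (limma adjusted p = 0.909, 0.562 and 0.873). The other measured PSA6_TOBAC probe had a different pattern. It was highest, at 0.06, on irZTL replicate 3, where the ribosomal median was lowest.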

How the data were processed

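Cy3-labelled RNA from 6 peduncle pools was hybridised to one-colour arrays, per the labels' protocols. Per the file headers, the authors extracted spot intensity values with Agilent Feature Extraction version 10.7.3.1, while version 9.5 stands in the submitters' processing notes. The processed intensity is linear, background-subtracted and not scaled between arrays, per the file headers. The authors' deposited table holds log2 values that, per the series' design text, were scaled to each array's 75th percentile, and 13 of 13 members lay within 0.02 of the values computed here on every array.

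Spots of a probe were averaged after outlier spots were left out, and the array's 75th percentile of log2 signal was subtracted. Filter, scaling and threshold followed the authors' design text. The fit used limma (version 3.58.1, R 4.3.3), two-sided, on all 28678 measured probes. It was tested on simulated data with added changes above 2-fold only, which does not bear on differences as small as those of the members. Each value's n was 3 arrays per group, which limits the precision. Same-numbered replicates of the groups deviated together (correlation 0.39, 0.14 and 0.37 over all measured probes), so the numbers were taken as pairs in an alternative fit.

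All measured members were named. Lists and naming rules were written before the files of this session were read, but the members and lists were chosen with earlier results of these data known. The list of 39977 genes of the reference annotation matched 0 of 13 probe identifiers, so no gene position is given, and probe sequences were not used here. Alternatives were normexp background correction on the median signal (offset 50), quantile and cyclic loess normalisation, no filter, the deposited values, slide as a fixed or random block, slide 2 alone, the replicate block, the methods' t-test and leaving out each array. Cyclic loess and the replicate block for pairs of probes were chosen after seeing the data.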

Additional observations from a re-analysis of the deposited data

How the results depend on the processing

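No cytosolic ribosomal protein probe was called under any of the 17 settings, and none had an adjusted p under 0.05, the lowest being 0.138 for RL8 NA14924_22624 with the replicate block. Unadjusted, 2 of 12 members were under 0.05 with the replicate block (27.2% of all measured probes), 2 without EV replicate 1 (22.1%) and 1 with slide as a fixed block (13.4%). Their median stayed below 0, from -0.06 without irZTL replicate 3 to -0.17 without EV replicate 1 among the arrays left out, and was -0.08 with quantile normalisation, -0.09 with cyclic loess and -0.16 with slide as a fixed block. From 8 to 12 of the 12 were below 0. Signs turned for 4 members. RL10 was -0.062 with slide as a fixed block, the same as for slide 2 alone. RL44 was -0.073 under both, and -0.0072 to 0.096 with 1 array left out, the lowest without irZTL replicate 2. RL31 was 0.040 with normexp, 0.031 with quantile normalisation, 0.028 with cyclic loess and -0.051 to 0.059 with 1 array left out, above 0 without irZTL replicate 3 or EV replicate 2. RS4 NA24368_22871 was 0.0084 with quantile normalisation and -0.070 to 0.020 with 1 array left out, above 0 without irZTL replicate 3. Over all measured probes the count of calls was 503 (258 higher, 245 lower). It was 267 (121, 146) with normexp, 260 (126, 134) with no filter, 68 (19, 49) when slide 1 was left out, 207 (76, 131) with slide as a fixed block and 77 (38, 39) with the methods' t-test. Leaving out an array gave 242 to 718 (133 to 325 higher, 109 to 393 lower). The cause of these changes was not tested. The replicate block gave 689 calls and changed no call of a member. Among the 6 probe pairs it moved 1 interval, that of RS4 NA12773_22870 against NA24368_22871, off 0. Signal over background limits 1 member, RL223_ARATH, which was not well above background.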
